A study of Mus musculus with 15 samples.

Results

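The MAP kinase phosphatase genes of the dual specificity phosphatase (Dusp) family were followed through a time course of ERK activation in mouse cells. The 10 genes were Dusp1, Dusp2, Dusp4, Dusp5, Dusp6, Dusp7, Dusp8, Dusp9, Dusp10 and Dusp16. They were taken by name from the 52636 Ensembl gene identifiers of the count table. The list was chosen with earlier results of these data known, so its calls beside the share of all tested genes are descriptions. All 10 passed the filter on low counts and were among the 13451 genes tested.

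RNA was sequenced from epiblast-like cells (EpiLCs), cells made in culture from embryonic stem cells that resemble the epiblast just after implantation. The line, CRAFR26, carries a c-RAF kinase construct that is switched on by 4-hydroxytamoxifen (4OHT) and then activates ERK. Cells of every group were differentiated for 48 h in N2B27 with 12 ng/ml bFGF, 20 ng/ml Activin A and 1 µM XAV939, a tankyrase inhibitor, and received 250 nM PD17 (PD173074), an inhibitor of the FGF receptor, for 2 h. The 0h group (n = 3) then received no 4OHT, and the 2h and 4h groups (n = 4 each) received 250 nM 4OHT for 2 h and 4 h. The rev group (n = 4) had 4 h of 4OHT followed by 2 h with a MEK inhibitor, which the labels do not name, and it has no control kept in 4OHT for the same time. Whether 4OHT and PD17 stayed in the medium of the rev cells is not given in the sources used here. PD17 is listed for 2 h in every group, and its presence during the 4OHT steps was not established here. The 2h and 4h groups have no control kept without 4OHT for the same time. Libraries came from 2 clones, clone 4 (7 libraries) and clone 8 (8 libraries), and 0h of clone 4 is a single library. Libraries are named below by clone and number, and with only 2 clones the p-values measure the spread between these libraries.

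MAP kinase phosphatases remove phosphate from both the threonine and the tyrosine of the activation loop of MAP kinases and so switch them off. Several of them are themselves induced by ERK signalling and form a negative feedback loop on the pathway. By place and target they fall into a nuclear inducible class (Dusp1, Dusp2 and Dusp4, which act on ERK, JNK and p38 to different degrees, and Dusp5, which is specific for ERK), a cytoplasmic class directed at ERK (Dusp6, Dusp7 and Dusp9) and a class directed at the stress kinases JNK and p38 (Dusp8, Dusp10 and Dusp16).

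The 4 genes called higher at 2 h have the promoters shown here, because the results turn on them and because immediate early genes are known to be read out through short elements close to the start. The sequences are the bases before the transcription start in RefSeq (build GRCm38.p6), 5′ to 3′ along the gene, without the bases that lie inside an annotated exon of the same gene (the last 47 of 250 for Dusp1 and the last 36 for Dusp5). Gene positions given further on are on the same assembly, GRCm38, from GENCODE M21. They cover chr17:26508520-26508722 on the minus strand for Dusp1, chr2:127335909-127336158 on the plus strand for Dusp2, chr19:53528895-53529108 on the plus strand for Dusp5 and chr10:99262981-99263230 on the plus strand for Dusp6. Capitals mark every match, on either strand, to the motifs searched.
Dusp1: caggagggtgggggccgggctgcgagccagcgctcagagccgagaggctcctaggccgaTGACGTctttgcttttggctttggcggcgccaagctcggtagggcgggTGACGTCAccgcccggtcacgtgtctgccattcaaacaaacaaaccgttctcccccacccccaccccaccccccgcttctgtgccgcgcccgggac
Dusp2: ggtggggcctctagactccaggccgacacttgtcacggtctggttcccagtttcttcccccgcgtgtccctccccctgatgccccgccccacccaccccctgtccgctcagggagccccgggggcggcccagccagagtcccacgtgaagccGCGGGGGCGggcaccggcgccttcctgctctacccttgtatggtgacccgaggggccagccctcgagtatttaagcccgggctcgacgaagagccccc
Dusp5: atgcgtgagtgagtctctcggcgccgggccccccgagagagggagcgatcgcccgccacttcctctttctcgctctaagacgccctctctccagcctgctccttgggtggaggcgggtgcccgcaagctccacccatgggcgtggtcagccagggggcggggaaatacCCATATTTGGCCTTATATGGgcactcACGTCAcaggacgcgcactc
Dusp6: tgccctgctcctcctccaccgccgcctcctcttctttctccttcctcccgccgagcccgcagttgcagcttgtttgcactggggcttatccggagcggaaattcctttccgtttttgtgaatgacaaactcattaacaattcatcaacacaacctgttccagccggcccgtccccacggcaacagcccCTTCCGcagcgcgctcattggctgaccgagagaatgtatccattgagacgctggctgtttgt

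The motifs were the cyclic AMP response element (CRE, TGACGTCA) and its core TGACGT, the AP-1 element TGANTCA, the ETS element CCGGAAGT and its core CGGAAG, the EGR element GCGNGGGCG, and the CArG box, which serum response factor binds. TGACGT lies inside TGACGTCA and CGGAAG inside CCGGAAGT, so those matches overlap. Dusp1 held TGACGTCA 143 bases before its start and a separate TGACGT 191 bases before it. Among 32851 RefSeq promoters, windows of the same 250 bases held TGACGTCA in 1.55% and TGACGT in 6.47%. Dusp5 held 2 adjoining CArG boxes, 82 and 72 bases before the start, followed by a TGACGT at 56 bases, and 1.47% of all windows held a CArG box. Dusp6 held the ETS core once, 62 bases before the start (13.6% of all windows), and Dusp2 an EGR element at 98 bases (4.70% of all windows). Of the other members with a RefSeq promoter entry, Dusp8 held TGACGTCA at 107 and 63 bases, Dusp16 an EGR element at 138 bases, and Dusp7 and Dusp10 none of these letters. The promoters of Dusp4 and Dusp9 were not analysed here. For Dusp8 and Dusp16 the RefSeq start was not found in the GENCODE transcripts of the gene. A match is a description of the letters and does not show that a factor binds there. An antisense transcript, AC137853.2, is annotated across the whole Dusp5 window.

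Library totals were 1552022 to 6658950 counts at 4h and 8667880 to 13004556 in the other groups, so the 4h values are the least precise. The level of 3 counts, the smallest that was treated as detected, was 1.83 CPM in 4h clone4_1 and 0.161 to 1.13 CPM in the other libraries. CPM is the count of a gene scaled to a common library size, with TMM factors. The 7 EpiLC markers had a mean of at least 1 CPM in each group, and their summed level was 873 to 1023 CPM at 4h and 1220 to 1709 CPM elsewhere. The members went both ways: Dnmt3b, the most abundant, had a mean of 935 CPM at 0h and 416 CPM at 4h, while Otx2 went from 12.3 to 25.1 CPM and Sox2 from 22.3 to 111 CPM. The summed level of 6 naive stem cell markers was 55.6 and 56.5 CPM in the 4h libraries of clone 4, 203 and 225 CPM in those of clone 8, and 29.4 to 38.1 CPM in the other groups. The 2 neural markers, Pax6 and Sox1, summed to 37.9 to 50.5 CPM at 4h and 2.38 to 10.1 CPM elsewhere. The 3 fibroblast markers summed to 0.377 to 15.4 CPM, with Col1a2 at 0 counts in all 4h libraries. The summed level of 4 mesendoderm markers was 2.79 to 3.35 CPM at 0h, 4.36 to 5.45 CPM at 2h, 5.69 to 11.4 CPM at 4h and 6.74 to 11.3 CPM in rev, so each later group lay above 0h without overlap. That of 5 primitive endoderm markers was 2.27 to 2.79 CPM at 0h, 2.44 to 3.21 CPM at 2h, 2.26 to 4.94 CPM at 4h and 3.38 to 5.16 CPM in rev. Depth moved with the 4h group and markers with all 3 later groups, and their part in any result below was not tested. In bulk RNA, fewer cells with a transcript and less transcript per cell cannot be told apart.

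**Figure D1:**
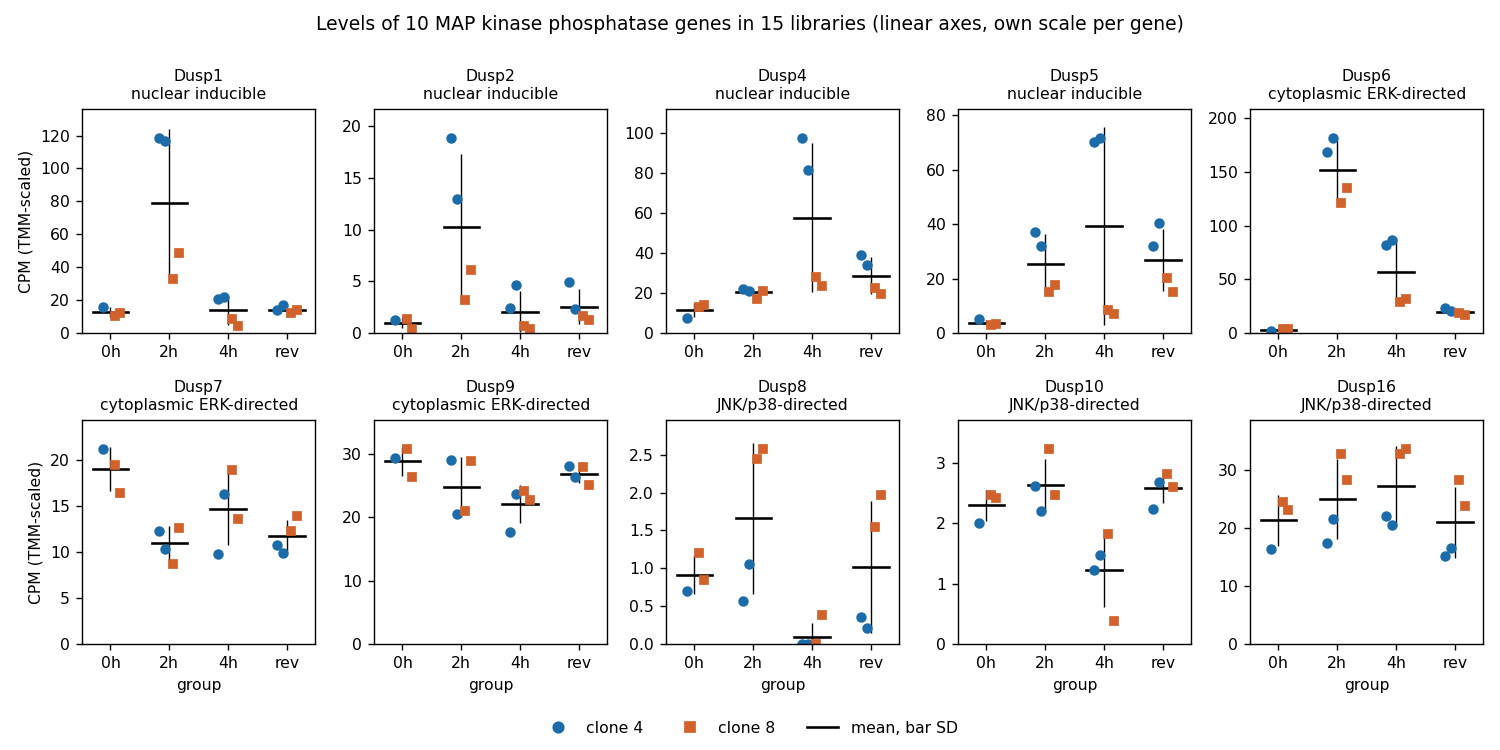
CPM of each of the 10 genes (vertical axes, linear, own scale per gene) in the groups 0h, 2h, 4h and rev, with circles for clone 4, squares for clone 8, a horizontal line for the group mean and a vertical bar for the SD. Dusp6 went from 3.35 CPM at 0h to 152 CPM at 2h, and the 4h libraries of clone 4 lie apart from those of clone 8 for Dusp4 and Dusp5.

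Before induction the cytoplasmic class was the most abundant. On the scale of CPM per kb of exon, which allows levels of different genes to be compared, Dusp9 was highest at 10.6 ± 0.826 (SD, n = 3) and made up 32.0% to 35.0% of the summed level of the 10 genes. Dusp7 followed at 5.65 ± 0.717, Dusp4 at 4.203 ± 1.24 and Dusp1 at 3.90 ± 0.869, and neighbours in this order overlapped between libraries from Dusp7 to Dusp1. Dusp16 (2.73 ± 0.565) came next and did not overlap Dusp1. With the longest transcript as the length, in place of the union of exons, Dusp16 was at 4.18 and Dusp1 at 5.58, above Dusp4, whose value did not change with the length used, and Dusp16 then overlapped Dusp1. Dusp5 (1.56 ± 0.413), Dusp6 (1.07 ± 0.319), Dusp10 (0.755 ± 0.0859), Dusp2 (0.499 ± 0.275) and Dusp8 (0.188 ± 0.0529) came last, each overlapping the next. Dusp6, later the leading gene, thus ranked seventh of 10 in cells with the FGF receptor inhibited and no 4OHT.

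After 2 h of 4OHT, 4 of the 10 members were higher and 1 was lower than at 0h (edgeR's quasi-likelihood test, Benjamini-Hochberg adjusted p under 0.05 over all tested genes), where 3.98% of all tested genes were called higher and 2.46% lower. The genes that rose were Dusp6, Dusp2, Dusp5 and Dusp1, and Dusp7 fell. The median log2 change of the 10 was 0.77, beside 0.01 over all tested genes. By class, 3 of 4 nuclear members rose (median 2.35), the cytoplasmic class split with 1 rise and 1 fall (median -0.21), and none of the 3 JNK/p38-directed members was called (median 0.32). DESeq2 also called none of those 3, and 2 of them had an unadjusted p under 0.05 with edgeR.

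Dusp6 (ENSMUSG00000019960, chr10:99263231-99267489), the cytoplasmic phosphatase specific for ERK, had 2.27 CPM in the 0h library of clone 4 and 3.54 and 4.24 CPM in those of clone 8. At 2h it had 169 and 181 CPM in clone 4 and 121 and 135 CPM in clone 8. Every 2h library thus lay far above every 0h library, and clone 4 went from the lower to the higher side. The log2 fold change was 5.37 (SE 0.40, adjusted p = 1.83e-05), a 41.3-fold rise. Dusp6 then made up 38.6% to 49.3% of the summed length-scaled level of the 10 genes, from 2.33% to 4.49% at 0h.

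Dusp1 (ENSMUSG00000024190, chr17:26505590-26562128), the classic immediate early phosphatase that acts on p38, JNK and ERK, had 10.5 to 16.1 CPM at 0h. At 2h it had 118 and 117 CPM in clone 4 and 32.7 and 48.8 CPM in clone 8. The groups did not overlap, and the clones stood apart at 2h. Its log2 fold change was 2.29 (SE 0.35, adjusted p = 0.00242). Dusp1 shares 11 exon bases with Ergic1 on the opposite strand, and the handling of strand is not given in the sources used here. Reads of the pair over those bases thus cannot be told apart. Dusp1 has 3311 exon bases in all. Ergic1 had means of 25.3 CPM at 0h, 21.4 CPM at 2h, 23.3 CPM at 4h and 23.2 CPM in rev.

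Dusp2 (ENSMUSG00000027368, chr2:127336159-127338376), a nuclear phosphatase best known from activated immune cells, had 0.363 to 1.34 CPM at 0h. At 2h it had 18.8 and 13.0 CPM in clone 4 and 3.23 and 6.11 CPM in clone 8. All 2h libraries were higher than all 0h libraries, with clone 4 again on top. The log2 fold change was 2.86 (SE 0.42, adjusted p = 0.000393).

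Dusp5 (ENSMUSG00000034765, chr19:53529109-53542431), the nuclear phosphatase that acts on ERK alone, had 5.02 CPM in clone 4 and 3.14 and 3.39 CPM in clone 8 at 0h. At 2h it had 37.3 and 32.0 CPM in clone 4 and 15.2 and 17.7 CPM in clone 8. The groups did not overlap, and the log2 fold change was 2.42 (SE 0.48, adjusted p = 0.0137). Without 0h clone4_1, the single clone 4 library of its group, it was 2.06 with an adjusted p of 0.108. The call was also lost without the clone term (2.71, adjusted p = 0.107) and after thinning to the smallest library (2.73, adjusted p = 0.0593), and over all alternatives the adjusted p ranged from 1.02e-09 to 0.108. The antisense AC137853.2 shares 547 exon bases with Dusp5 and cannot be told apart from it over those bases.

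Dusp7 (ENSMUSG00000053716, chr9:106368632-106375724), a cytoplasmic relative of Dusp6, went the other way. It had 16.4 to 21.1 CPM at 0h and 8.72 to 12.6 CPM at 2h, with no overlap. The log2 fold change was -0.78 (SE 0.18, adjusted p = 0.00923). Without 0h clone4_1 it was -0.61 with an adjusted p of 0.156, the largest over the alternatives, where the smallest was 5.06e-05. After thinning it was -0.67 (adjusted p = 0.136).

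The 5 members that were not called at 2 h differed in how far their groups overlapped. Dusp4 (ENSMUSG00000031530, chr8:34807297-34819894), a nuclear phosphatase of ERK and JNK, had 7.67 to 14.1 CPM at 0h and 16.9 to 22.2 CPM at 2h. Its libraries did not overlap, but the log2 fold change of 0.65 had an SE of 0.41 (adjusted p = 0.399). It was called when the groups compared were fitted alone (0.87, adjusted p = 0.0191), and the adjusted p ranged up to 0.845 over the alternatives. Within the clones the change was 1.499 (SE 0.20) in clone 4 and 0.49 (SE 0.16) in clone 8, a difference that was not called (adjusted p = 0.191). Dusp9 (ENSMUSG00000031383, chrX:73639419-73643514), the ERK-directed phosphatase that led at 0h, had 26.3 to 30.7 CPM at 0h and 20.4 to 28.9 CPM at 2h (log2 fold change -0.21, SE 0.14). Dusp8 (ENSMUSG00000037887, chr7:142079490-142095843) had 0.702 to 1.20 CPM and then 0.567 to 2.57 CPM, Dusp10 (ENSMUSG00000039384, chr1:184013302-184075636) 2.00 to 2.47 CPM and then 2.21 to 3.23 CPM, and Dusp16 (ENSMUSG00000030203, chr6:134715468-134792625) 16.3 to 24.5 CPM and then 17.5 to 32.8 CPM. With the clones pooled, all 3 of these JNK/p38-directed genes overlapped between 0h and 2h. Within each clone, the 2h libraries of Dusp16 lay above those of 0h (log2 fold change 0.32, SE 0.11, adjusted p = 0.0961).

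**Figure D2:**
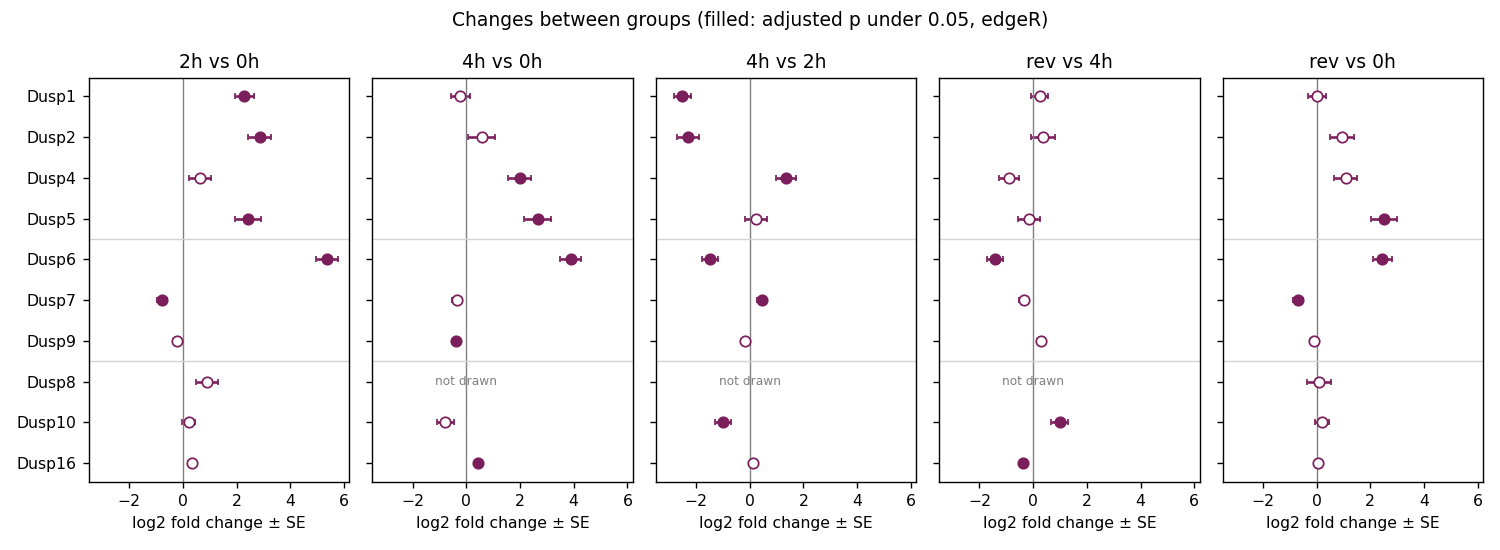
Log2 fold change (horizontal axis, bar SE) of each gene in 5 comparisons, with rows ordered by class (nuclear, cytoplasmic ERK-directed, JNK/p38-directed) and filled points for an adjusted p under 0.05. Dusp6 stands at 5.37 in 2h vs 0h and at 2.45 in rev vs 0h, and Dusp8 is not drawn against 4h because it had 1 count in all 4h libraries together.

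Between 2 h and 4 h the early members parted. Of the 10, 2 rose (Dusp4 and Dusp7) and 5 fell (Dusp1, Dusp2, Dusp6, Dusp8 and Dusp10), where 19.7% of all tested genes were called higher and 19.2% lower. The median log2 change was -0.58, beside -0.01 over all tested genes. With so many genes called, the counts of members alone say little about them.

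Dusp1 fell from its 2h level to 20.8 and 22.0 CPM in clone 4 and 8.65 and 4.15 CPM in clone 8, below every 2h library. The log2 change from 2h was -2.51 (SE 0.32, adjusted p = 8.52e-05). Against 0h it was -0.22 (SE 0.34, adjusted p = 0.641), with overlapping groups. Dusp2 fell to 2.44 and 4.69 CPM in clone 4 and 0.683 and 0.377 CPM in clone 8, from 4, 19, 3 and 1 counts. The log2 change from 2h was -2.28 (SE 0.41, adjusted p = 0.000315). The 4h library clone4_2 lay above the 2h library clone8_1, but within each clone the groups did not overlap. Dusp1 and Dusp2 were the pair of members with the most similar pattern, with a Pearson correlation of log2 CPM of 0.901 over 15 libraries that share depth and clone.

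Dusp6 fell less, to 81.9 and 86.9 CPM in clone 4 and 29.1 and 31.7 CPM in clone 8, below every 2h library and above every 0h library. The log2 change from 2h was -1.49 (SE 0.30, adjusted p = 0.00221), and against 0h it was 3.88 (SE 0.38, adjusted p = 1.67e-05). Dusp5 had 70.3 and 71.6 CPM in clone 4 and 8.65 and 7.16 CPM in clone 8. Clone 4 lay above and clone 8 below all 2h libraries. With the clones averaged, the change from 2h was 0.24 (SE 0.41, adjusted p = 0.683), and against 0h the log2 fold change was 2.65 (SE 0.51, adjusted p = 0.00198).

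Dusp4 had its highest levels at 4h. It reached 97.1 and 81.5 CPM in clone 4 and 28.0 and 23.7 CPM in clone 8 at 4h. All 4h libraries were above all 2h and 0h libraries, by a wide margin in clone 4 and a narrow one in clone 8. The log2 fold change was 1.34 from 2h (SE 0.38, adjusted p = 0.016) and 1.99 from 0h (SE 0.44, adjusted p = 0.0045). The call from 2h was lost without 2h clone4_1 (adjusted p = 0.0556) or 2h clone4_2 (adjusted p = 0.0564), with no filter (adjusted p = 0.0548) and after thinning (adjusted p = 0.0799), and its adjusted p ranged from 0.00191 to 0.0799 over all alternatives. The call from 0h was lost when the groups compared were fitted alone (adjusted p = 0.0888, the largest over its alternatives, the smallest being 1.59e-05).

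Against 0h, 4 members were higher at 4 h (Dusp6, Dusp5, Dusp4 and Dusp16) and 2 were lower (Dusp8 and Dusp9), where 20.5% of all tested genes were called higher and 18.9% lower. The median log2 change of the members was 0.11, beside 0.03 over all tested genes. By class, 2 of 4 nuclear members rose (median 1.28), the cytoplasmic class had 1 rise and 1 fall (median -0.34) and so had the JNK/p38-directed class (median -0.78). With library totals in place of TMM, the log2 change of the median tested gene was -0.73 in 4h vs 0h, -0.57 in 4h vs 2h, 0.45 in rev vs 4h, -0.30 in rev vs 0h and -0.18 in 2h vs 0h. On that scaling 3 members were called higher and 5 lower at 4 h against 0h, as Dusp1, Dusp7 and Dusp10 were called lower and Dusp16 was not called. Changes are therefore stated relative to the bulk of genes, and small ones turn with the scaling.

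Dusp16, the large JNK-directed phosphatase, had 22.0 and 20.5 CPM in clone 4 and 32.8 and 33.6 CPM in clone 8 at 4h. Clone 8 was above clone 4 in every group, and within each clone the 4h values differed little from those at 2h (log2 change 0.12, SE 0.11). The log2 fold change against 0h was 0.44 (SE 0.12, adjusted p = 0.00486), and with library totals it was -0.30 (adjusted p = 0.398), which is 0.43 above the shift of the median gene. It also missed the threshold with no filter (adjusted p = 0.147) and without the clone term (adjusted p = 0.306). Dusp9 had 17.7 to 24.1 CPM at 4h, below all 0h libraries, a change of -0.37 (SE 0.14, adjusted p = 0.04). That call was lost in 10 of 17 alternatives, with adjusted p between 0.00062 and 0.496, among them without 0h clone4_1 (0.13), 0h clone8_1 (0.121), 4h clone4_1 (0.106) or 4h clone8_2 (0.0595).

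Dusp7 had 9.77 and 16.3 CPM in clone 4 and 18.9 and 13.6 CPM in clone 8 at 4h, overlapping both earlier groups. Its rise from 2h of 0.44 (SE 0.17, adjusted p = 0.0493) lost its call in 12 of 18 alternatives, with adjusted p between 0.0105 and 0.679. Libraries whose removal ended it were 2h clone4_2 (0.115), 2h clone8_1 (0.166), 4h clone4_2 (0.167), 4h clone8_1 (0.221) and 4h clone8_2 (0.0521). With library totals it was -0.16, which is 0.41 above the shift of the median gene.

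Dusp8, a phosphatase of JNK and p38 known from brain, had 0, 0, 0 and 1 counts in the 4h libraries, the last in clone8_2. At 2h it had 5 and 12 counts in clone 4 and 28 and 48 in clone 8. Summed over each group and scaled, its level was 23.6-fold higher at 2h than at 4h (95% exact interval for counting error 4.13 to 941) and 11.6-fold higher at 0h than at 4h (1.96 to 470). The quasi-likelihood test called both (adjusted p = 0.000347 and 0.00647). Without the clone term the difference from 0h was not called (adjusted p = 0.0635). At the depth of the 4h libraries the gene was at the limit of detection. Its overlapping neighbour Gm32786 had at most 1 count in a library.

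Dusp10, a phosphatase of p38 and JNK, had 1.22, 1.48, 1.82 and 0.377 CPM at 4h, from 2, 6, 8 and 1 counts. The 2 and 1 counts of 4h clone4_1 and 4h clone8_2 are under the 3 counts treated as detected. All 4h libraries were below all 2h libraries, and the log2 change was -1.002 (SE 0.31, adjusted p = 0.0128). Without 4h clone8_2 it was -0.72 with an adjusted p of 0.0501, the largest over the alternatives, where the smallest was 0.00221. Against 0h the change was -0.78 (SE 0.32, adjusted p = 0.058), and it was called without 4h clone8_1 (-1.07, adjusted p = 0.0317).

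**Figure D3:**
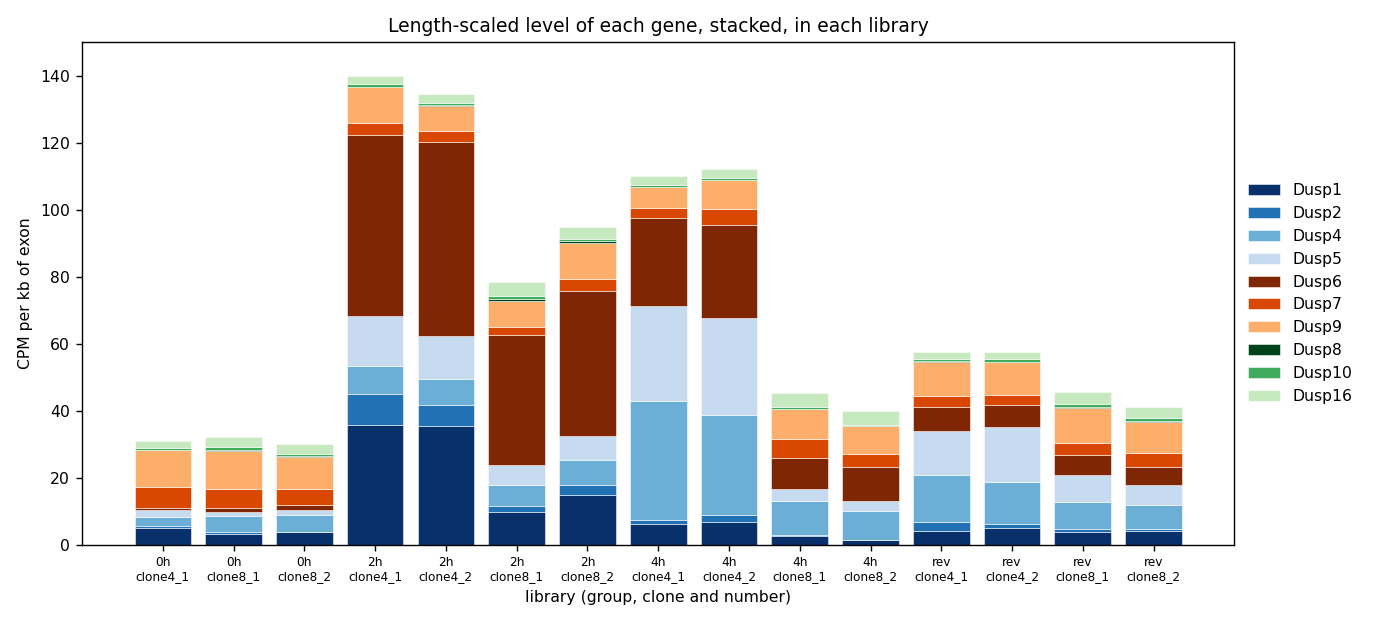
Stacked bars of CPM per kb of exon (vertical axis) of the 10 genes in each of the 15 libraries (horizontal axis), with blue for the nuclear class, orange and brown for the cytoplasmic ERK-directed class and green for the JNK/p38-directed class. The sum is 30.2 to 32.2 at 0h and 78.6 to 140 at 2h, and at 4h it is above 100 in both clone 4 libraries and below 50 in both clone 8 libraries.

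The make-up of the family changed along the time course. The summed level of the 10 genes was 31.1 ± 1.01 CPM per kb at 0h (SD, n = 3), 112 ± 29.99 at 2h, 76.9 ± 39.6 at 4h and 50.4 ± 8.40 in rev (SD, n = 4 each). The nuclear class held 30.4% to 34.3% of it at 0h in both clones. The clone 4 libraries had nuclear shares of 48.9% and 46.4% after 2 h, of 64.8% and 60.4% after 4 h, and of 58.9% and 61.0% after the MEK inhibitor. The clone 8 libraries had nuclear shares of 30.3% and 34.3% after 2 h, of 36.8% and 32.5% after 4 h, and of 45.9% and 43.7% after the MEK inhibitor. The cytoplasmic class, from 52.7% to 57.3% at 0h, thus stayed the larger one at 2h and 4h in clone 8, where its 4h share was 52.6% and 56.2%. The JNK/p38-directed class had 3.68 ± 0.694 CPM per kb at 0h and 3.91 ± 0.867 at 4h, and its share ranged from 2.30% to 13.1%.

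The order of levels per kb at 2h was led by Dusp6 (48.4 ± 9.04), without overlap with Dusp1 (23.9 ± 13.5). With the longest transcript as the length they overlapped, with Dusp1 at 51.1 and 50.5 in clone 4 and Dusp6 at 43.4 in its lowest library. From Dusp1 down to Dusp16 each gene overlapped the next. At 4h Dusp4 (21.0 ± 13.6), Dusp6 (18.3 ± 9.98), Dusp5 (15.9 ± 14.7) and Dusp9 (8.10 ± 1.08) each overlapped the next and came first. In rev, Dusp5 (10.9 ± 4.65), Dusp4 (10.5 ± 3.39) and Dusp9 (9.85 ± 0.527) led and could not be separated, followed by Dusp6 (6.34 ± 0.861), which overlapped Dusp5 and Dusp4 but not Dusp9.

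After MEK inhibition, Dusp6 and Dusp16 were lower and Dusp8 and Dusp10 higher than at 4h, so 2 members were called in each direction, where 15.1% of all tested genes were called higher and 15.6% lower. The median log2 change was 0.04, beside 0.02 over all tested genes. None of the 4 nuclear members was called by edgeR or DESeq2, and 1 had an unadjusted p under 0.05 with edgeR. All 3 JNK/p38-directed members were called, in mixed directions (median 0.98), with 2 of them called by DESeq2.

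Dusp6 had 23.0 and 21.1 CPM in clone 4 and 18.5 and 16.9 CPM in clone 8 in rev, below all 4h and above all 0h libraries. The log2 change from 4h was -1.44 (SE 0.30, adjusted p = 0.00393). Dusp4 had 38.9 and 34.1 CPM in clone 4 and 22.6 and 19.3 CPM in clone 8, a change of -0.91 (SE 0.37, adjusted p = 0.0878). It was called without 4h clone8_2 (-1.14, adjusted p = 0.034) and when the groups compared were fitted alone (-0.82, adjusted p = 0.00612). Dusp5 had 32.0 and 40.5 CPM in clone 4 and 20.2 and 15.05 CPM in clone 8, which lay inside the wide range of 4h. Dusp7 was not called (-0.35, adjusted p = 0.133), but was without 4h clone4_1 (-0.48, adjusted p = 0.0343).

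Dusp10 had 2.24 to 2.82 CPM in rev, above all 4h libraries, a log2 change of 0.98 (SE 0.31, adjusted p = 0.0194). Without 4h clone8_2 it was 0.69 (adjusted p = 0.0744, the largest over the alternatives, the smallest being 0.0109). Dusp8 had 5, 2, 11 and 19 counts in rev, 11.6-fold above 4h when summed (95% exact interval for counting error 1.95 to 470, adjusted p = 0.00622, or 0.0688 without the clone term). Its rev levels were 0.350 and 0.206 CPM in clone 4 and 1.55 and 1.97 CPM in clone 8. Dusp16 had 15.2 and 16.6 CPM in clone 4 and 28.2 and 23.9 CPM in clone 8, a change of -0.38 (SE 0.11, adjusted p = 0.0101) that was 0.01 with library totals (adjusted p = 0.981), or -0.44 relative to the shift of the median gene. That call was also lost with no filter (adjusted p = 0.18) and without the clone term (adjusted p = 0.269).

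Against 0h, 2 members remained higher in rev (Dusp5 and Dusp6) and 1 was lower (Dusp7), where 6.49% of all tested genes were called higher and 4.66% lower. The median log2 change was 0.14, beside 0.02 over all tested genes. Dusp5 was 2.49 higher (SE 0.49, adjusted p = 0.00866) and Dusp6 2.45 higher (SE 0.36, adjusted p = 0.00144) on the log2 scale, with no overlap of the groups. Dusp7 had 9.91 to 13.9 CPM in rev, below every 0h library, a change of -0.69 (SE 0.18, adjusted p = 0.0143). Without 0h clone4_1 the change of Dusp5 was 2.13 (adjusted p = 0.0722) and that of Dusp7 -0.53 (adjusted p = 0.182), which left Dusp6 as the single call. Dusp5 also lost its call without the clone term (adjusted p = 0.0699), and Dusp7 without rev clone4_2 (adjusted p = 0.0513) and after thinning (-0.45, adjusted p = 0.303). Dusp4 had 19.3 to 38.9 CPM in rev, above every 0h library (7.67 to 14.1 CPM), but its log2 change of 1.08 (SE 0.42, adjusted p = 0.127) was not called. Dusp2 (0.94, adjusted p = 0.181) was called without 0h clone8_1 (1.68, adjusted p = 0.0151) and with no filter (adjusted p = 0.0179). Dusp1 had 12.3 to 16.9 CPM in rev and overlapped 0h (log2 change 0.01, SE 0.32).

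The time courses differed between the clones for Dusp4, Dusp5 and Dusp6, and for Dusp1 in rev vs 4h. Other ERK targets, given further on, also differed between the clones. No clone difference was called for Dusp2. A difference between clones was called for 1 of the 10 members in 2h vs 0h (0.23% of all tested genes), for 3 in 4h vs 0h (3.87%), for 3 in 4h vs 2h (3.14%), for 4 in rev vs 4h (2.8%) and for 1 in rev vs 0h (0.0818%). These comparisons share libraries with one another. Within a clone each group held 2 libraries, or 1 for 0h of clone 4, which is assumed to vary like the others. Dusp6 rose by 6.26 (SE 0.21) in clone 4 and by 5.04 (SE 0.15) in clone 8 from 0h to 2h on the log2 scale, a difference of -1.22 for clone 8 minus clone 4 (SE 0.21, adjusted p = 0.018). That call was lost without 0h clone8_2 (-1.07, adjusted p = 0.189) and with DESeq2 (adjusted p = 0.12), and the adjusted p ranged from 0.0139 to 0.608 over its alternatives.

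From 0h to 4h, Dusp4 rose by 3.54 (SE 0.23) in clone 4 and by 0.95 (SE 0.16) in clone 8, a difference of -2.59 (SE 0.26, adjusted p = 4.01e-06). Dusp5 rose by 3.82 (SE 0.26) and 1.29 (SE 0.19), a difference of -2.53 (SE 0.30, adjusted p = 2.58e-05). Dusp6 rose by 5.21 (SE 0.20) and 2.97 (SE 0.14), a difference of -2.24 (SE 0.22, adjusted p = 3.48e-06). All 3 rises were thus smaller in clone 8. The Dusp4 and Dusp5 differences were called in all of their 9 alternatives, and that of Dusp6 was lost with library totals (adjusted p = 0.124). Without 4h clone8_1 the Dusp1 difference (-1.19, adjusted p = 0.077) was called too (-1.83, adjusted p = 0.00596). From 0h to rev, Dusp4 changed by 2.25 (SE 0.21) in clone 4 and 0.64 (SE 0.16) in clone 8, a difference of -1.61 (SE 0.25, adjusted p = 0.0252). That call was lost in 6 of 9 alternatives, with adjusted p between 0.000282 and 1. They were library totals and leaving out 0h clone8_1 (0.052), 0h clone8_2 (0.13), rev clone4_1 (0.103), rev clone8_1 (0.101) or rev clone8_2 (0.109).

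**Figure D4:**
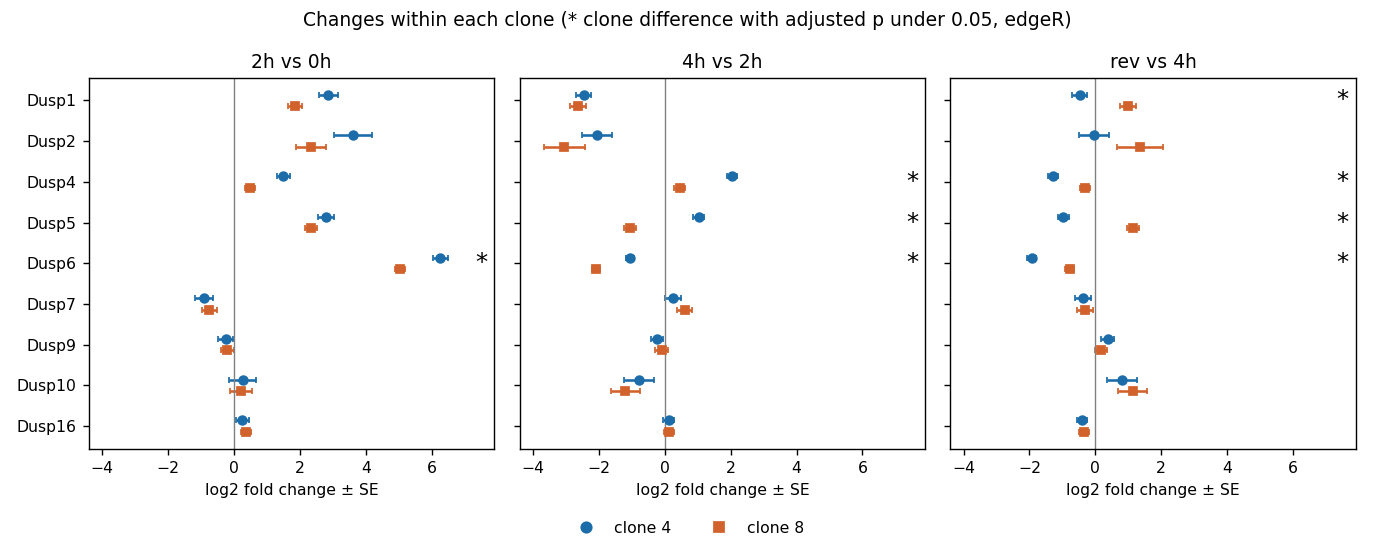
Log2 fold change (horizontal axis, bar SE) within clone 4 (circles) and clone 8 (squares) for 9 genes in 3 comparisons, with an asterisk where the difference between clones had an adjusted p under 0.05. Dusp8 is left out because of its 4h counts. Dusp5 lies at 1.03 in clone 4 and -1.05 in clone 8 in 4h vs 2h, and at -0.97 and 1.14 in rev vs 4h.

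From 2h to 4h, Dusp5 moved in opposite directions. The log2 change was 1.03 (SE 0.17) in clone 4 and -1.05 (SE 0.18) in clone 8, a difference of -2.08 (SE 0.25, adjusted p = 6.31e-05). From 4h to rev it was -0.97 (SE 0.17) in clone 4 and 1.14 (SE 0.19) in clone 8, a difference of 2.11 (SE 0.25, adjusted p = 5.27e-05). Both comparisons use the same 4h libraries, so they are not independent. Dusp4 rose from 2h to 4h by 2.04 (SE 0.16) in clone 4 and by 0.45 (SE 0.16) in clone 8, a difference of -1.58 (SE 0.22, adjusted p = 0.000274). Dusp6 fell by 1.05 (SE 0.12) in clone 4 and by 2.08 (SE 0.13) in clone 8, a difference of -1.02 (SE 0.18, adjusted p = 0.00195).

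From 4h to rev, Dusp6 changed by -1.94 (SE 0.13) in clone 4 and -0.78 (SE 0.13) in clone 8 (difference 1.16, adjusted p = 0.000746). Dusp1 changed by -0.47 (SE 0.22) in clone 4 and 0.98 (SE 0.24) in clone 8 (difference 1.46, adjusted p = 0.0168). Dusp4 changed by -1.29 (SE 0.16) in clone 4 and -0.31 (SE 0.16) in clone 8 (difference 0.98, adjusted p = 0.018). The Dusp1 and Dusp4 differences were both lost without 4h clone8_2 (adjusted p = 0.0766 and 0.0955). Dusp1 was also lost without 4h clone4_2, rev clone4_1 or rev clone8_2 (0.0608, 0.0994 and 0.0815), and Dusp4 without 4h clone4_1, rev clone4_2 or rev clone8_1 (0.0704, 0.088 and 0.119). The adjusted p ranged from 0.00198 to 0.716 for Dusp1 and from 0.0185 to 1 for Dusp4 over their alternatives. With library totals as scaling, the differences of all 4 genes in rev vs 4h missed the threshold (adjusted p between 0.0733 for Dusp5 and 1), as did that of Dusp6 in 4h vs 2h (0.141). Naive stem cell markers, at 55.6 and 56.5 CPM in clone 4 and 203 and 225 CPM in clone 8 at 4h, also split by clone, and their part in these differences was not tested.

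Other genes of the pathway were taken from lists of known members, which were also chosen with earlier results of these data known. Of 11 feedback inhibitors and ERK targets, 7 rose and 1 fell at 2 h (median log2 change 1.21), where 3.98% of all tested genes were called higher and 2.46% lower, with the zinc finger factor Egr1 at 7.86 (adjusted p = 0.000136) and the ETS factor Etv4 at -0.47 (adjusted p = 0.0292) at the ends. In rev vs 4h, 6 of the 11 fell (median -0.67), where 15.6% of all tested genes were called lower, with the ERK pathway inhibitor Spry4 at -2.26 (adjusted p = 6.01e-11). The clone split was not particular to the phosphatases. In 4h vs 0h, 6 of the 11 had a called difference below 0 for clone 8 minus clone 4, beside 3.87% of all tested genes with any called difference. They were Spry2, Spry4, Spred1, Spred3, Egr1 and Fos. In rev vs 4h, 3 (Spred3, Egr1 and Fos) had one above 0, beside 2.8%. Egr1, Spry4 and Spry2 were also the genes whose pattern was most like that of Dusp6 among genes with a mean of at least 1 CPM, with Pearson correlations of log2 CPM of 0.972, 0.961 and 0.948 over the 15 libraries. Those most like Dusp5 were BC030867 (0.986), Wsb2 (0.975) and Fosl2 (0.966), those most like Dusp1 were Brd2 (0.965), Nfu1 (0.916) and Zfp36 (0.912), and those most like Dusp2 were Brd2 (0.947), Sertad1 (0.942) and Junb (0.933). Dusp7 was most like Arvcf (0.912), Patz1 (0.903) and Mepce (0.872).

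The lists of the ERK and JNK/p38 arms held the kinases that these phosphatases act on, genes above them, and the ERK-activated kinase genes Rps6ka1, Rps6ka2 and Rps6ka3. Most of these genes were not called at 2 h, like most of all tested genes. Of 11 genes of the ERK arm, 1 rose and 1 fell (median log2 change -0.06), and of 11 of the JNK/p38 arm 1 rose (median -0.03), beside the same shares of 3.98% and 2.46%. At 4 h against 0h, where 20.5% of all tested genes were called higher and 18.9% lower, the ERK arm had 4 genes higher and 3 lower, from the ERK-activated kinase gene Rps6ka3 at 1.30 to its relative Rps6ka2 at -1.50 (adjusted p = 0.000424 and 2.37e-07). The JNK/p38 arm had 2 higher and 3 lower, with the p38 delta gene Mapk13 at -2.17 (adjusted p = 1.02e-05) and the JNK kinase gene Map2k4 at 0.47, or -0.26 with library totals. Mapk13 was 2.29 higher in rev than at 4h (adjusted p = 4.24e-06). It had 5.18 to 5.94 CPM at 0h, 0.377 to 1.73 CPM at 4h, near the level treated as detected, and 4.44 to 7.33 CPM in rev. Among phosphatases of other families that act on MAP kinases, 6 were tested. At 4 h 2 were higher and 3 lower, beside 20.5% and 18.9% of all tested genes. At the ends were the tyrosine phosphatase gene Ptpn7 at 1.72 (adjusted p = 0.0119) and the p38-directed phosphatase gene Ppm1d at -0.71 (adjusted p = 0.000122). Ptpn7 had 0.270 to 0.969 CPM at 0h and 1.51 to 3.05 CPM at 4h, near the level treated as detected. With library totals its change was 0.97.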

How the data were processed

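RNA was ribosome-depleted and prepared with a NEBNext Ultra II kit, per the labels' protocols. The authors deposited raw counts per gene for 15 libraries, and they discarded 1 library of 0h in quality control, per the series' design text. The submitters' processing notes name mm10, STAR 2.5.3a and bcl2fastq 2.19.1, while the counter, annotation and strand setting are not given in the sources used here. Names, exons and coordinates came from GENCODE M21 and promoters from RefSeq (8 of 10 members matched, GRCm38.p6). Ranges of library depth are given with the results.

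The analysis used edgeR 4.0.16 (R 4.3.3): filterByExpr by group (minimum count 10, minimum total 15), TMM, and a quasi-likelihood F test (glmQLFit robust, legacy off, two-sided) with group and clone over all 15 libraries. Adjusted p are Benjamini-Hochberg over 13451 genes, called under 0.05. Clone differences used a coefficient for each group in each clone. SE is the log2 change divided by the square root of F. Levels per kb used the union of exons. Intervals for low counts cover counting error only. Steps were tested on simulated data. Correlations used log2 CPM (prior count 2) and are descriptions.

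All 10 members are named. Other Dusp genes are named when called with at least a 2-fold change, and genes of the pathway lists by the largest called change in each direction. The members and lists were chosen with earlier results of these data known. Alternatives were library totals, relative log expression scaling, leaving out the 20 most abundant and mitochondrial genes, no filter, no clone term, a replicate block, thinning, only the groups compared, DESeq2 1.42.0, the longest transcript as length and leaving out each library. The older quasi-dispersion of edgeR, and leaving out libraries in the clone differences, were added after seeing the data, as were the clone differences of 4h and rev against 0h.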

Additional observations from a re-analysis of the deposited data

Results flagged for a closer look

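Dusp8 had 0.377 CPM in 4h clone8_2 and 0 in the other 3 libraries of 4h. This value stood apart from its group by more than Dixon's critical value. With the other libraries tied at 0, any count would be flagged, so the flag was fixed by the zeros. The value rests on 1 count, and it was the single such value in 30 groups checked. The rate of about 1 in 20 that chance flags does not cover such tied counts.

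The effect of the same step differed between clone 8 and clone 4 in 12 tests with edgeR's quasi-likelihood test (adjusted p between 3.48e-06 and 0.0252). In 2h vs 0h the difference, as clone 8 minus clone 4 on the log2 scale, was -1.22 for Dusp6. In 4h vs 0h it was -2.59 for Dusp4, -2.53 for Dusp5 and -2.24 for Dusp6. In 4h vs 2h it was -1.58 for Dusp4, -2.08 for Dusp5 and -1.02 for Dusp6. In rev vs 4h it was 1.46 for Dusp1, 0.98 for Dusp4, 2.11 for Dusp5 and 1.16 for Dusp6. In rev vs 0h it was -1.61 for Dusp4. These comparisons share libraries with one another.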

How the results depend on the processing

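Over the alternatives, Dusp6 stayed called in the same direction in all 5 comparisons, and Dusp1 and Dusp2 did in their rise by 2h and their fall by 4h. With library totals the direction turned for Dusp16 in 4h vs 0h (-0.30) and in rev vs 4h (0.0104), and for Dusp7 in 4h vs 2h (-0.16), by less than the shift of the median gene. Without the clone term, 3 members were called in 4h vs 0h (6 with it) and 2 in rev vs 4h (4 with it), while the share of all tested genes called went from 39.4% to 32.6% and from 30.8% to 23.3%. After thinning to the smallest library, where fewer genes passed the filter and Dusp8 and Dusp10 were not tested in any comparison, 3 were called in 2h vs 0h (5 before), 3 in 4h vs 2h (7 before) and 2 in rev vs 4h (4 before). The share of all tested genes called was then 2.94% in 2h vs 0h, 26.6% in 4h vs 2h and 20.3% in rev vs 4h, from 6.45%, 38.9% and 30.8%.

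Calls of clone differences depended on the scaling. With library totals the differences in rev vs 4h were 1.39 for Dusp1, 0.93 for Dusp4, 2.05 for Dusp5 and 1.07 for Dusp6. With TMM they were 1.46, 0.98, 2.11 and 1.16. In rev vs 0h Dusp4 was at -1.59, beside -1.61 with TMM. Dusp6 in 2h vs 0h was at -0.50 with library totals, where the median tested gene differed by 0.68, and at -1.22 with TMM. With library totals, edgeR called 0 members in 2h vs 0h, 0 in rev vs 4h and 0 in rev vs 0h, with 0, 3 and 2 at an unadjusted p under 0.05, and 0.0149%, 0.327% and 0.00743% of all tested genes. In 2h vs 0h the older quasi-dispersion called 0 and DESeq2 called 0, each with 3 at an unadjusted p under 0.05. DESeq2 called 3 in 4h vs 0h, 3 in 4h vs 2h, 4 in rev vs 4h and 1 in rev vs 0h. The cause was not tested.

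Leaving out each library in turn gave 3 to 5 members called in 2h vs 0h and 1 to 4 in rev vs 0h, with both lowest counts without 0h clone4_1. For clone differences it gave 0 to 1 in 2h vs 0h, with 0 without 0h clone8_2, 2 to 4 in rev vs 4h, with 2 without 4h clone8_2, 3 to 4 in 4h vs 0h, and 0 to 1 in rev vs 0h.

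Whether numbers within a clone pair the libraries was not settled. Of 9 same-numbered pairs, 1 had a correlation of deviations over 0.1. With so few libraries per group and clone, such a correlation cannot show whether libraries were handled together. With the replicate block, Dusp9 in 4h vs 0h (-0.35, adjusted p = 0.0721) and Dusp7 in 4h vs 2h (0.44, adjusted p = 0.0616) lost their calls. Levels per kb of Dusp1 and Dusp16 depend on the length used. With the longest transcript, Dusp16 at 0h was 4.18 in place of 2.73 CPM per kb. The shallow 4h libraries limit Dusp2, Dusp8 and Dusp10 the most.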

Other observations

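Of 14 other genes with a Dusp symbol in the table, most of which do not act mainly on MAP kinases, 9 were tested. In 2h vs 0h 1 was called higher, where 3.98% of all tested genes were called higher and 2.46% lower. In 4h vs 0h 4 were higher and 1 was lower, beside 20.5% and 18.9% of all tested genes. Dusp27, a muscle-associated member that is thought to lack phosphatase activity, had 0.485 to 1.78 CPM at 0h, 0.436 to 1.59 CPM at 2h, 16.3 to 18.5 CPM at 4h and 0.705 to 2.24 CPM in rev. Its 4h libraries were alike in both clones and lay above all others. The log2 change was 4.19 in 4h vs 2h (adjusted p = 1.45e-09) and -3.73 in rev vs 4h (adjusted p = 1.32e-08). With library totals these were 3.65 and -3.28.

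Dusp14, a small phosphatase without the kinase-binding domain of the 10 members, had 1.81 to 2.79 CPM at 0h, 5.93 to 21.0 CPM at 2h, 2.05 to 16.5 CPM at 4h and 10.3 to 29.7 CPM in rev. Its log2 change was 2.10 in 2h vs 0h (adjusted p = 0.00749) and 1.39 in rev vs 4h (adjusted p = 0.00982), so it was higher in rev than at 4h, where Dusp6 was lower. In rev vs 4h the change was 0.80 in clone 4 and 2.44 in clone 8, a difference of 1.64 (adjusted p = 0.0171). Dusp18 had 0.648 to 2.06 CPM at 0h and 1.83 to 3.46 CPM at 4h (log2 change 1.03, adjusted p = 0.0444), and with library totals the change was 0.28, which is above the shift of the median gene. Its lowest 4h value was near the level treated as detected.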
